A study of Mus musculus with 6 samples.

Results

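Oligodendrocyte and myelin genes were followed through a translating ribosome affinity purification from the mouse preoptic area (POA), a hypothalamic region that regulates body temperature. The set holds 40 genes chosen by symbol, and all 40 were found among the 27884 genes of the deposited table, each as a single row. The IP libraries (n = 3) held RNA bound to ribosomes carrying EGFP, purified with an anti-GFP antibody, and the input libraries (n = 3) held RNA of the whole tissue processed in parallel. All libraries came from NuTRAP::Pnoc-Cre females aged 17 to 18 weeks, so that the input tissue carries the same alleles as the IP. In NuTRAP mice a Cre-dependent construct puts EGFP on the ribosomes of cells in which Cre has acted, here under control of Pnoc, the gene of prepronociceptin. Each replicate pooled the POA punches of 3 animals, and the same-numbered IP and input libraries share a pool.

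Oligodendrocytes wrap axons in myelin, a stack of membrane that is rich in cholesterol and galactolipids and is held together by a small number of abundant proteins. They arise from precursors under the control of the transcription factors Olig2 and Sox10, and Myrf then switches on the myelin genes. In the preoptic region myelin lies in fibre bundles that pass through the tissue and in the neighbouring optic chiasm and anterior commissure. The labels describe the cells with tagged ribosomes as neurons.

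IP libraries held between 48204567 and 51380354 counts, and input libraries between 49068467 and 53056642. Pnoc, which checks the labels, had 47.7, 43.1 and 41.1 CPM in IP replicates 1, 2 and 3, against 7.51, 10.98 and 13.2 CPM in input replicates 1, 2 and 3, a log2 fold change of 2.06 ± 0.22 (SE). Of 16 POA markers tested 2 rose in IP (Gal and Nts), a share near that of all genes tested, of which 12.9% rose. The count was 4 with the replicate as a block, and in edgeR 0 without IP replicate 3. CPM are counts divided by library size, scaled by the TMM method of edgeR. FPKM are the authors' deposited values, scaled by library and gene length in another way.

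Every member was lower in IP. Of the 40 members all passed the filter on low counts, 40 fell and 0 rose in edgeR's quasi-likelihood test at an adjusted p under 0.05 (0 rose when p-values under 0.05 were left unadjusted, and DESeq2 called 0 higher). Over all 18640 genes tested, 17.1% fell and 12.9% rose, which makes 3191 lower and 2400 higher. With library totals alone as the scaling, all tested genes lower in IP numbered 3678 and all tested genes higher in IP 1734. The 3 IP libraries all lay below the 3 input libraries for each of the 40 members, as they did for 26.0% of the genes tested. The median log2 fold change of the members was -3.05, an 8.25-fold difference, against -0.07 over all genes tested. Of the members 38 fell by at least 4-fold and 21 by at least 8-fold, against 6.77% and 3.01% of all genes tested. Same-numbered IP and input libraries share a pool, so a fall is a lower share of RNA in IP than in the tissue it came from. It does not measure cell numbers or RNA per cell, and the source of the RNA left in IP was not tested.

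**Figure D1:**
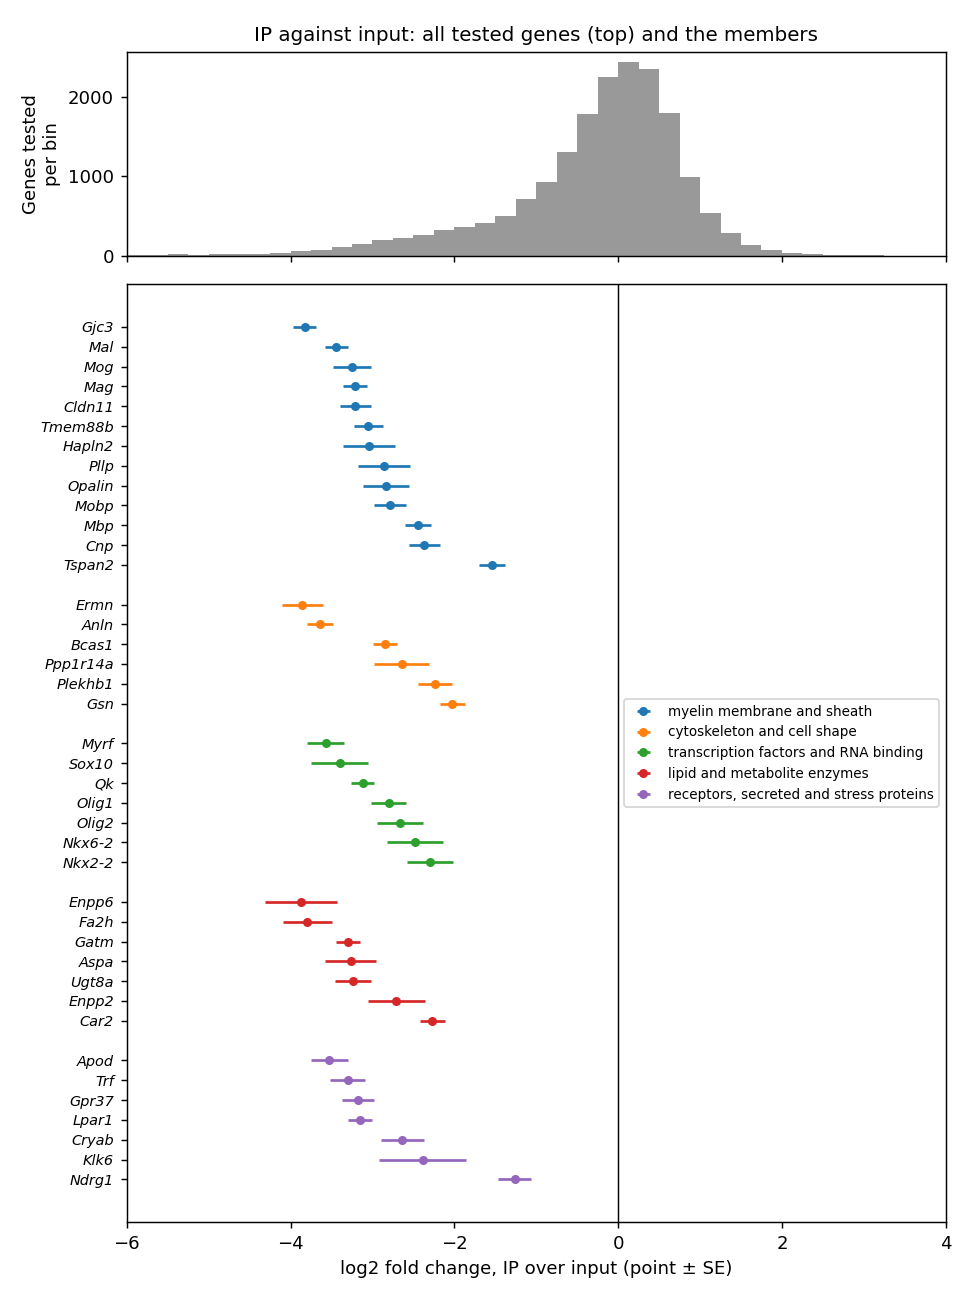
The upper panel counts all 18640 tested genes by log2 fold change of IP over input in bins of 0.25, with 79 genes below -6 and 8 above 4 outside the axis. The lower panel shows the log2 fold change ± SE of the 40 members in 5 roles, and every point lies between -3.88 and -1.26.

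As a share of the library, the members together took 0.107%, 0.105% and 0.141% of the counts in IP replicates 1, 2 and 3. In input replicates 1, 2 and 3 they took 0.709%, 0.854% and 0.866%. The members were thus still read in every IP library, from 50566 to 72449 counts, and the sparsest value was that of Enpp6 with 19 counts in IP replicate 1. Reads carry no molecular identifiers, so that counts do not equal molecules.

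Promoters of the members are shown because both Sox10 and Myrf, whose known target motifs can be searched for, are among them. A link between promoters and the fall in IP was not tested. The windows are the 250 bases before the start of the GENCODE M39 canonical transcript on GRCm39. SOX letters (ACAAAG or AACAAT, either strand) were found in 47.5% of the 40 member promoters and in 20.2% of 17366 promoters of protein-coding genes in the table. MYRF letters (CTGGCAC or CTGGTAC, either strand) were found in 15% of member promoters and in 6.02% of all. Both kinds occurred in 5 members, which makes 12.5%, against 1.21% of all promoters. These were Mog, Cnp, Myrf, Trf and Hapln2. The E-box CAGCTG was found in 12.5% of member promoters and 11.8% of all, the TATA box letters TATAAA in 7.5% and 8.71%, and the GC box GGGCGG in 35% and 43.5%. The median GC content of the windows was 54.4% for members and 55.6% for all. A match is a description of these letters, not a binding site, and windows were not masked for repeats. All 250 bases of the Mag, Gjc3, Qk, Lpar1, Gsn and Ndrg1 windows are annotated exon. The Trf and Hapln2 windows, which hold both kinds of letters, have 171 and 72 exonic bases. All of these windows were kept in the shares above. The sequences are those of the 3 members with both kinds of letters whose window holds no annotated exon, and of Ermn, the member with the largest fall whose window holds none of the motifs and no exon. Each runs 5′ to 3′ on the strand of the gene, with SOX and MYRF letters in capitals.
Mog: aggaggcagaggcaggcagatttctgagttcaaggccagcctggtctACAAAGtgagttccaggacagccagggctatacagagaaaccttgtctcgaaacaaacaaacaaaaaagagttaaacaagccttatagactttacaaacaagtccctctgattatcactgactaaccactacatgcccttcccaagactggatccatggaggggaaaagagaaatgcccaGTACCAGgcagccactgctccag
Cnp: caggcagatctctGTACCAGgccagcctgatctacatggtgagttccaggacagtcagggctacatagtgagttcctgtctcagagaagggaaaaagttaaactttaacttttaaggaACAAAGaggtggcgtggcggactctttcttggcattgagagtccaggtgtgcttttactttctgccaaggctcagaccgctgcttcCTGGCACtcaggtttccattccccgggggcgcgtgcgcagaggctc
Myrf: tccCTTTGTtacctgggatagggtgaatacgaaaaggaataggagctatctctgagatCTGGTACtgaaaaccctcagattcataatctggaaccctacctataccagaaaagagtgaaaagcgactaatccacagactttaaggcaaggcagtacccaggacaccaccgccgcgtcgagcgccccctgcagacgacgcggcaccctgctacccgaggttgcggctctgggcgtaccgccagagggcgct
Ermn: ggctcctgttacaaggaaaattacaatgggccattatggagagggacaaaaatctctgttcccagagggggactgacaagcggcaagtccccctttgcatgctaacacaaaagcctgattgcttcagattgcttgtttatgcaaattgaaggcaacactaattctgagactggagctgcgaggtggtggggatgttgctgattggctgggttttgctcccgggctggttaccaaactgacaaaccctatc
In Mog (chr17:37334351-37334600, minus strand) the SOX letters begin 203 bases and the MYRF letters 23 bases before the start. In Cnp (chr11:100465480-100465729, plus strand) the SOX letters begin 132 bases before the start and MYRF letters 237 and 46 bases before it. The letters around the SOX match of Mog, its only one, closely resemble those that follow the Cnp MYRF match at 237 bases. Whether these similar stretches are repeats was not tested. In Myrf itself (chr19:10218162-10218411, minus strand) they begin 247 and 192 bases before the start. The Ermn window lies at chr2:57942883-57943132 on the minus strand.

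The 13 genes of the myelin membrane and sheath fell by 1.54 to 3.83 on the log2 scale, with a median of -3.04 and adjusted p-values from 1.76e-05 to 0.000606 in edgeR's test. Mbp, whose protein joins the cytoplasmic faces of compact myelin, was the most abundant member per length in both groups, at 33.9 ± 6.26 FPKM in IP against 181 ± 14.5 FPKM in input (SD, n = 3 each). It had 271, 245 and 345 CPM in IP replicates 1, 2 and 3, against 1470, 1527 and 1686 CPM in input, 5.44-fold lower in IP (log2 fold change -2.44 ± 0.15, SE). The highest IP library of Mbp thus lay well under the lowest input library. Cnp, a cyclic nucleotide phosphodiesterase of non-compact myelin, had 92.3, 97.2 and 131 CPM in IP against 449, 602 and 604 CPM in input, a log2 fold change of -2.37 ± 0.19 (SE). Mal, a raft proteolipid that carries proteins to the myelin membrane, had 25.1, 29.1 and 29.4 CPM in IP against 290, 329 and 289 CPM in input, with -3.44 ± 0.14 (SE).

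Gjc3, a connexin gene (ENSMUSG00000056966, chromosome 5), had the largest fall of this role. It had 6.18, 6.01 and 5.28 CPM in IP and 78.2, 83.0 and 87.3 CPM in input, a 14.2-fold difference with a log2 fold change of -3.83 ± 0.14 (SE). Tspan2, a tetraspanin that neurons also express, had the smallest. It had 55.8, 75.4 and 78.3 CPM in IP against 193, 205 and 211 CPM in input, a 2.91-fold difference with -1.54 ± 0.16 (SE). Even so its libraries did not overlap. Between them lay Mog, a glycoprotein of the outermost myelin surface, at -3.25 ± 0.23, Mag, the adhesion molecule facing the axon, at -3.22 ± 0.15, and Cldn11, which forms the tight junctions of myelin, at -3.21 ± 0.19 (log2 fold change ± SE). Mobp, a second basic protein of compact myelin, stood at -2.78 ± 0.20, and the membrane proteins Tmem88b, Opalin and Pllp at -3.05 ± 0.18, -2.83 ± 0.28 and -2.86 ± 0.32. Hapln2, a link protein of the matrix at nodes of Ranvier, stood at -3.04 ± 0.31. Pllp was the scarcest of the role, averaging 1.14 ± 0.279 CPM over the IP libraries and 8.30 ± 2.06 CPM over the input libraries (SD, n = 3 each).

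**Figure D2:**
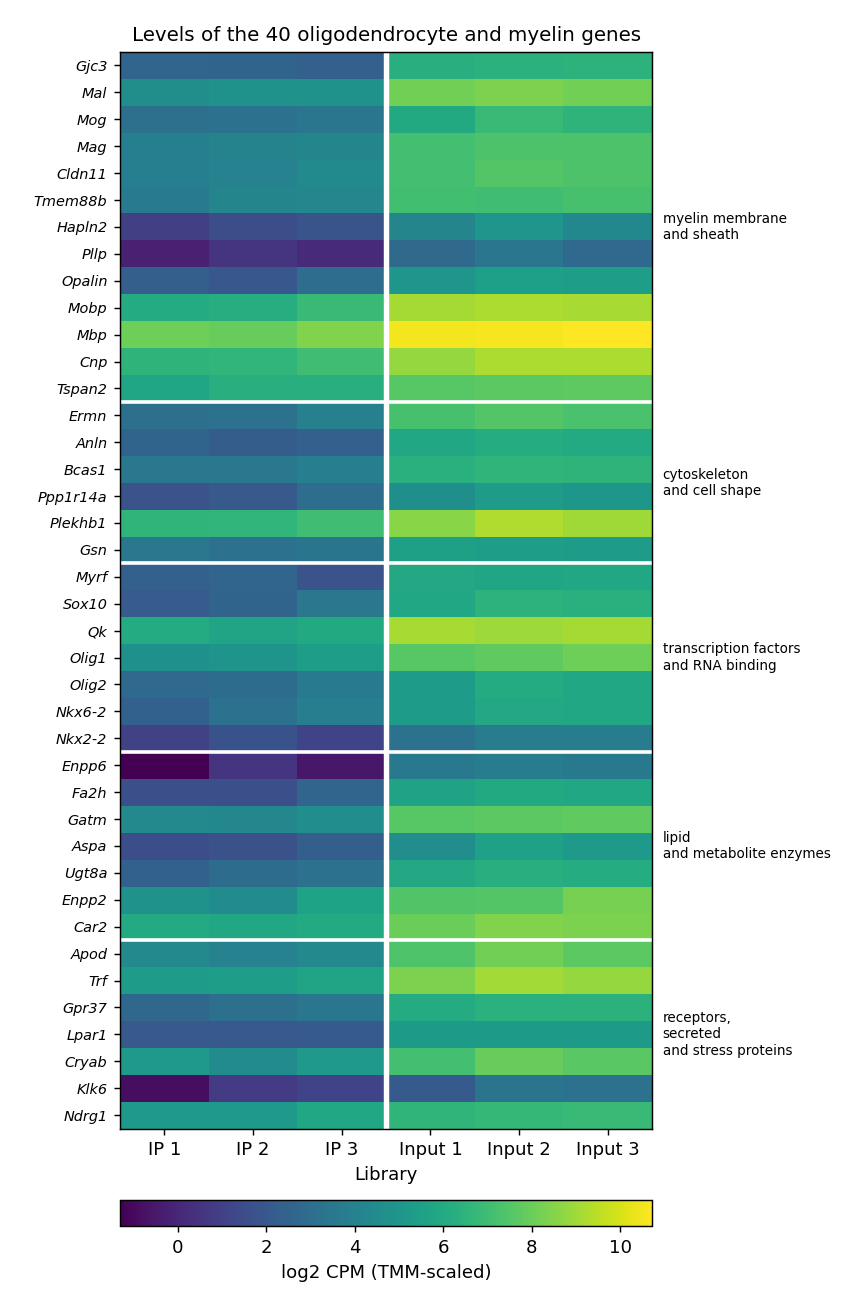
Each row is a member and each column a library, IP to the left of input, with colour giving log2 CPM on TMM-scaled library sizes. Within each of the 5 roles genes are ordered from the largest to the smallest fall, and all 40 rows are darker in the 3 IP columns than in the 3 input columns.

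The 6 genes of the cytoskeleton and cell shape had a median log2 fold change of -2.75, and their adjusted p-values ran from 1.76e-05 to 0.00113 in edgeR's test. Ermn, an actin-binding protein gene specific to myelinating cells, fell the most. It had 8.87, 9.11 and 15.5 CPM in IP against 147, 182 and 157 CPM in input, a 14.5-fold difference with -3.86 ± 0.25 (SE). IP replicate 3 stood above the other IP libraries for this gene, and without it the log2 fold change was -4.16. Anln, the actin and septin scaffold anillin, followed at -3.64 ± 0.16 (SE). Plekhb1, a membrane-bound PH domain protein, was the most abundant of the role at 29.1 ± 5.50 FPKM in IP against 135 ± 32.5 FPKM in input (SD, n = 3 each). It had 95.4, 98.0 and 131 CPM in IP against 389, 627 and 512 CPM in input, with -2.23 ± 0.21 (SE). Gsn, the actin-severing protein gelsolin, fell the least of the role, with 11.6, 9.30 and 10.5 CPM in IP against 45.5, 42.2 and 39.8 CPM in input and -2.02 ± 0.15 (SE). Ppp1r14a, an inhibitor of myosin phosphatase, had 3.45, 4.14 and 8.04 CPM in IP against 25.4, 38.96 and 33.4 CPM in input, with -2.64 ± 0.34 (SE), and Bcas1, a marker of actively myelinating cells, stood at -2.85 ± 0.15 (SE).

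Regulators of the lineage fell together with the myelin genes. The 7 transcription and RNA-binding genes had a median log2 fold change of -2.80 and adjusted p-values from 1.76e-05 to 0.00158 in edgeR's test. Myrf had 5.29, 6.22 and 3.47 CPM in IP against 62.0, 56.1 and 60.1 CPM in input, an 11.9-fold difference with -3.57 ± 0.23 (SE). Sox10 had 4.43, 5.98 and 11.2 CPM in IP against 60.8, 88.3 and 79.4 CPM in input, with -3.40 ± 0.34 (SE). For Sox10 the third IP library stood above the others, and for Myrf it stood below them.

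Olig1 and Olig2 are neighbouring genes on chromosome 16, from 91066660 to 91068821 and from 91022345 to 91025565 on mm39. Olig1 was the more abundant per length, at 15.1 ± 3.75 FPKM in IP against 103 ± 17.7 FPKM in input (SD, n = 3 each). Its libraries held 26.3, 30.1 and 41.5 CPM in IP against 196, 220 and 268 CPM in input, with -2.80 ± 0.21 (SE). Olig2 had 6.89, 7.63 and 12.1 CPM in IP against 40.8, 68.5 and 59.3 CPM in input, with -2.66 ± 0.28 (SE), so that the log2 fold changes of the neighbours lay within their SE of each other. Qk, an RNA-binding protein that controls splicing and transport of myelin mRNAs, had 67.4, 52.5 and 64.2 CPM in IP against 560, 493 and 548 CPM in input, with -3.12 ± 0.14 (SE). Nkx2-2, a factor of precursors and early oligodendrocytes, fell the least of the role, with 2.09, 3.30 and 2.18 CPM in IP against 9.48, 13.6 and 14.1 CPM in input and -2.30 ± 0.28 (SE). Nkx6-2, a factor that acts in myelination, had 5.39, 9.50 and 14.2 CPM in IP against 40.7, 62.0 and 59.5 CPM in input, with -2.48 ± 0.34 (SE).

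Genes of lipid and metabolite enzymes had a median log2 fold change of -3.26, and all 7 fell with adjusted p-values from 1.76e-05 to 0.00115 in edgeR's test. Ugt8a, which makes galactosylceramide, and Fa2h, which hydroxylates its fatty acid, stood at -3.24 ± 0.22 and -3.80 ± 0.30 (SE). Aspa, the enzyme that frees acetate from N-acetylaspartate, stood at -3.26 ± 0.31, and Gatm, which carries out the first step of creatine synthesis, at -3.30 ± 0.15 (SE). Gatm had 20.6, 18.9 and 23.8 CPM in IP against 191, 209 and 222 CPM in input. Enpp6, a choline phosphodiesterase of newly formed oligodendrocytes, had the largest fall of all members, with 0.405, 1.43 and 0.685 CPM in IP against 11.6, 13.4 and 11.97 CPM in input. That is 14.7-fold lower (log2 fold change -3.88 ± 0.44, SE), and its SE spans the log2 fold changes of Ermn, Gjc3 and Fa2h. Car2, a carbonic anhydrase, fell the least of the role, with 66.3, 59.9 and 66.7 CPM in IP against 257, 348 and 324 CPM in input and -2.27 ± 0.15 (SE).

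Autotaxin, encoded by Enpp2, makes lysophosphatidic acid, and Lpar1 encodes a receptor for it. Enpp2 had 28.1, 22.9 and 51.3 CPM in IP replicates 1, 2 and 3, against 177, 183 and 308 CPM in input replicates 1, 2 and 3. Replicate 3 was the highest for both kinds of library. The choroid plexus also makes Enpp2, and its marker Ttr had 8.40, 3.36 and 72.9 CPM in IP against 30.4, 19.9 and 382 CPM in input, so that replicate 3 was again the highest. The summed level of all 8 choroid plexus markers ran from 13.8 to 91.5 CPM in IP and from 45.3 to 462 CPM in input, with the highest value in replicate 3 of each kind, and Ttr made up most of it there. Without Ttr the other 7 markers summed to 25.4, 10.5 and 18.6 CPM in IP replicates 1, 2 and 3, highest in replicate 1, against 31.3, 25.4 and 80.9 CPM in input, highest in replicate 3. In IP 6 of the 8 markers were highest in replicate 3, whereas Clic6, at 15.5, 3.92 and 5.16 CPM, and Otx2, at 4.69, 1.69 and 3.18 CPM, were highest in replicate 1. In input all 8 were highest in replicate 3. Folr1 was at 0 in replicate 2 of both kinds, Slc4a5 in IP replicates 1 and 2 and Aqp1 in input replicate 2. All 8 of these markers had a log2 fold change below 0, and 1 of them, Clic6, was called lower in IP. The count was 4 with the replicate as a block and 0 in DESeq2. The part of choroid plexus RNA in the level of Enpp2 was not tested. Enpp2 stood at -2.71 ± 0.35 (SE) with all libraries and at -2.82 without both libraries of replicate 3, and was called each time. Lpar1 was the steadiest member, with 4.20, 4.16 and 4.35 CPM in IP against 37.5, 38.3 and 37.5 CPM in input and -3.15 ± 0.15 (SE).

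**Figure D3:**
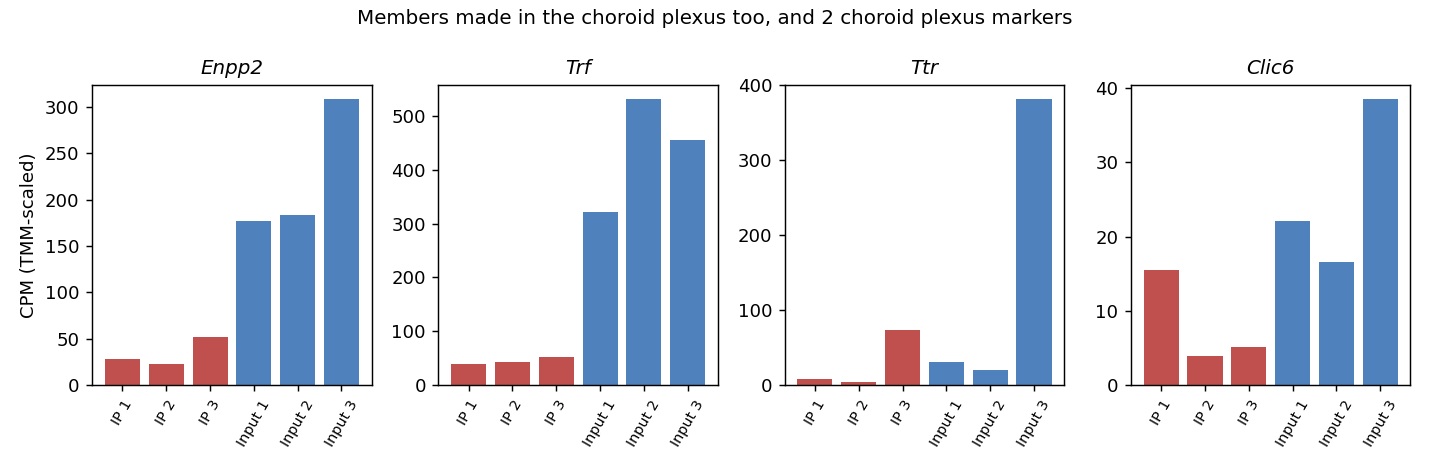
Bars give CPM on TMM-scaled library sizes in the 3 IP libraries (red) and the 3 input libraries (blue), for the members Enpp2 and Trf and the choroid plexus markers Ttr and Clic6, each on its own axis from 0. Enpp2 and Ttr are highest in replicate 3 of both kinds, Clic6 is highest in replicate 1 of IP and replicate 3 of input, and Trf in input is highest in replicate 2.

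Receptors, secreted and stress proteins fell by 1.26 to 3.53 on the log2 scale, with a median of -3.15 and adjusted p-values from 1.76e-05 to 0.0111 in edgeR's test. Apod, a secreted lipid carrier, had 20.3, 16.2 and 20.7 CPM in IP against 168, 283 and 207 CPM in input, an 11.5-fold difference with -3.53 ± 0.22 (SE). Trf, transferrin, which carries iron, had 38.7, 42.6 and 51.8 CPM in IP against 323, 532 and 457 CPM in input, with -3.30 ± 0.22 (SE). Gpr37, a receptor that restrains oligodendrocyte differentiation, stood at -3.18 ± 0.20 (SE). Cryab, a small heat shock protein, had 35.9, 22.6 and 35.1 CPM in IP against 138, 247 and 198 CPM in input, with -2.64 ± 0.26 (SE). Ndrg1, a stress-responsive gene needed for stable myelin in peripheral nerve, fell the least of all members, with 35.9, 37.3 and 57.9 CPM in IP against 94.8, 104 and 115 CPM in input. That is 2.40-fold lower (log2 fold change -1.26 ± 0.20, SE), and edgeR's test gave an adjusted p of 0.00303. Klk6, a secreted protease, was the least certain member, with 0.554, 1.71 and 2.16 CPM in IP against 4.31, 9.92 and 8.99 CPM in input and -2.39 ± 0.53 (SE). Its adjusted p of 0.0111 in edgeR's test became 0.0798 without both libraries of replicate 2 and 0.093 without both libraries of replicate 3.

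Members that other cells of the region also express spanned nearly the whole range of falls. The 14 members listed as known in other cells too had a median log2 fold change of -2.69, and the other 26 had a median of -3.19. The 14 ran from Apod at -3.53 to Ndrg1 at -1.26 and held the 5 smallest falls of all members (Ndrg1, Tspan2, Gsn, Plekhb1 and Car2), while 5 of the 14 fell by at least 8-fold. The difference between these medians was not tested. By stage, the 4 genes shared with precursors (Sox10, Olig1, Olig2 and Nkx2-2) had a median of -2.73 and the 12 genes of mature cells a median of -3.23. The 2 genes of newly formed oligodendrocytes, Enpp6 and Bcas1, stood at -3.88 and -2.85. Sox10, shared with precursors, stood at -3.40, beyond the median of the mature genes. Of the staged genes Olig1, Olig2, Apod and Trf are also among the 14, and differences between stages were not tested.

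The ratio of members to Mbp within a library does not depend on library scaling. Ndrg1 had 0.133, 0.152 and 0.168 times the CPM of Mbp in IP against 0.0645, 0.0684 and 0.0682 times in input. Tspan2 had 0.206, 0.308 and 0.227 times the CPM of Mbp in IP against 0.131, 0.134 and 0.125 times in input. Both ratios were therefore higher in every IP library than in any input library. Mag moved the other way, at 0.055, 0.069 and 0.0532 times the CPM of Mbp in IP against 0.0943, 0.108 and 0.0962 times in input. The ratio of Cnp to Mbp overlapped between groups, from 0.341 to 0.397 in IP and from 0.305 to 0.394 in input. These pairs were chosen after their values were seen, and no test was made.

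Per length, the order of the members was largely kept in IP. Over the 40 members the Spearman correlation of mean FPKM in IP with mean FPKM in input was 0.94, a description over genes of the same libraries. Mbp, Cnp and Plekhb1 were the 3 most abundant members in both kinds of library, and 8 of the 10 most abundant in IP were also among the 10 most abundant in input. The log2 fold change itself varied little with the level in input (Spearman correlation 0.17 over the 40 members) or with gene length (-0.18).

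The members also moved together between replicates of 1 kind. In input, replicate 1 had the lowest CPM for 33 of the 40 members and replicate 2 the highest for 26. In IP, replicate 3 had the highest CPM for 31 members and replicate 1 the lowest for 25. Median deviations of the members from the mean of their kind were -0.22, -0.10 and 0.26 on the log2 scale in IP replicates 1, 2 and 3, and -0.19, 0.14 and 0.06 in input replicates 1, 2 and 3. Over all genes tested these medians stayed between -0.0038 and 0.0125, but TMM scaling brings libraries to a common level and so largely sets them near 0. The median difference of IP minus input over the members was -3.04, -3.22 and -2.77 on the log2 scale in replicates 1, 2 and 3. Transcripts of the mitochondrial genome, which were also low in IP, took 0.106%, 0.134% and 0.214% of counts in IP replicates 1, 2 and 3, against 3.50%, 4.90% and 4.67% in input. In IP both the members and these transcripts were highest in replicate 3, and in input both were lowest in replicate 1. The part of this difference between libraries in the members' values was not tested.

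**Figure D4:**
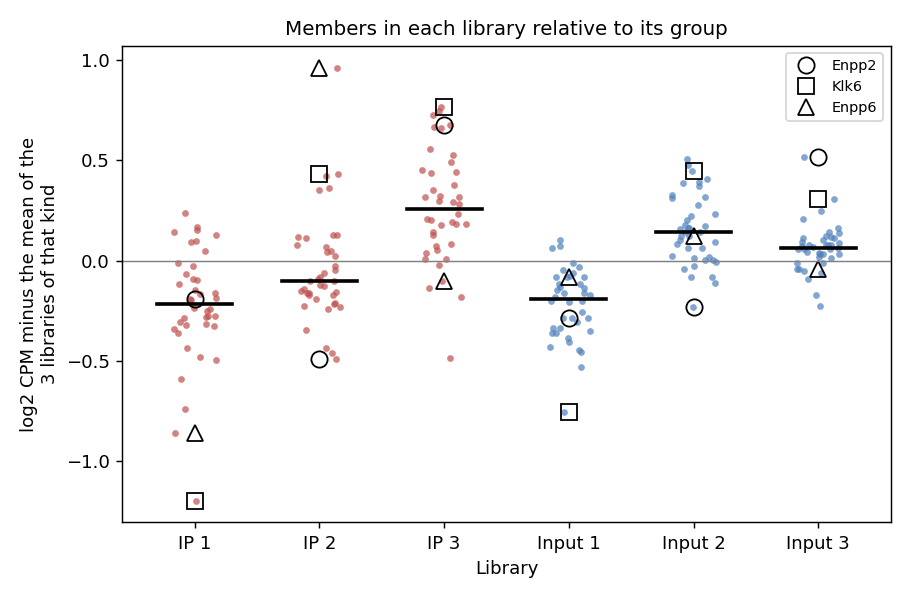
Each point is a member, placed by its log2 CPM in a library minus its mean over the 3 libraries of that kind, and black lines are medians over the 40 members. Points of IP replicate 3 lie mostly above 0 and those of input replicate 1 mostly below. Enpp2, Klk6 and Enpp6 are outlined, of which Enpp6 varied 3.53-fold between IP libraries but 1.15-fold between input libraries.

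Of 59 further genes of oligodendrocytes and myelin, listed from general knowledge, 46 fell, 1 rose and 12 did not pass in edgeR's test, with a median log2 fold change of -2.29. Without both libraries of replicate 3, 28 of them fell. Fth1, the heavy chain of ferritin, which many cells express, was the most abundant per length, with 978, 977 and 1247 CPM in IP against 2585, 3399 and 2819 CPM in input and -1.46 ± 0.15 (SE). Large falls were those of Tnfaip6 at -3.81 ± 0.59 and Erbb3 at -3.71 ± 0.43 (SE). Rnf220, a ubiquitin ligase, rose by 0.90 ± 0.11 (SE), with 386, 418 and 393 CPM in IP against 205, 218 and 219 CPM in input.

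The 12 further genes that did not pass include several that neurons express as well. Tubb4a, a beta tubulin, had 1220, 1457 and 1302 CPM in IP against 942, 1514 and 1089 CPM in input, and the groups overlapped. Nfasc, the adhesion molecule neurofascin, stood at 0.00 ± 0.16, Tppp, a tubulin-binding protein, at -0.25 ± 0.19, and Efnb3, an ephrin, at 0.04 ± 0.14 (log2 fold change ± SE). Cdk18 stood at 0.26 ± 0.18, Carns1 at 0.29 ± 0.26, Zfp536 at -0.13 ± 0.33, Desi1 at -0.38 ± 0.14 and Gamt, the enzyme after Gatm in creatine synthesis, at -0.59 ± 0.24. The remaining 3 were scarce, with Smtnl2 at -0.67 ± 0.48, Kif6 at -0.63 ± 0.35 and Slc45a3 at -2.39 ± 0.87.

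Most markers of astrocytes, microglia, oligodendrocyte precursors and vessels fell too, whereas 1 of 8 choroid plexus markers was called lower. All 8 choroid plexus markers still stood below 0 on the log2 scale, from -3.84 to -0.66 with a median of -1.67. Their summed CPM varied widely between input libraries, from 45.3 to 462. The astrocyte list fell in full, 13 of 13 genes with a median of -2.68 on the log2 scale, and so did the microglial list, 13 of 13 with a median of -3.15. Of 9 markers of oligodendrocyte precursors 8 fell, with a median of -2.77, and of 12 endothelial and mural markers 9 fell, with a median of -2.27 (6 and 4 fell without both libraries of replicates 2 and 3). The median of the members, -3.05, lay within the range of these medians, and the differences between lists were not tested. Summed CPM of the astrocyte list ran from 903 to 1069 in IP and from 3576 to 4048 in input, and that of the members from 1096 to 1460 in IP and from 6893 to 8318 in input. No astrocyte or microglial marker was at 0 in any IP library. The most abundant marker of each list per length in input was Aldoc for astrocytes at -1.26 ± 0.18, C1qb for microglia at -2.80 ± 0.32, Vtn for endothelial and mural cells at -2.77 ± 0.27 and Lhfpl3 for precursors at -0.50 ± 0.27, which was not called (log2 fold change ± SE). Of 5 leptomeningeal markers tested 3 fell (0 in edgeR without both libraries of replicate 3), led in abundance by Dcn at -2.50 ± 0.60 (SE). Neuronal lists went the other way in part: of 15 pan-neuronal genes 7 rose and 1 fell (none was called by edgeR without both libraries of replicate 3), with a median of 0.56, and Uchl1, the most abundant, stood at 0.68 ± 0.22 (SE). Of 11 GABAergic markers 6 rose, with a median of 0.92 (3 without both libraries of replicate 3), and Gad2, the most abundant, stood at 0.21 ± 0.13 (SE) and was not called. Markers of Schwann cells, which make myelin in peripheral nerve, fell in 2 of 5 tested cases (0 in edgeR without IP replicate 3), Pmp22 being the most abundant at -1.62 ± 0.46 (SE).

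**Figure D5:**
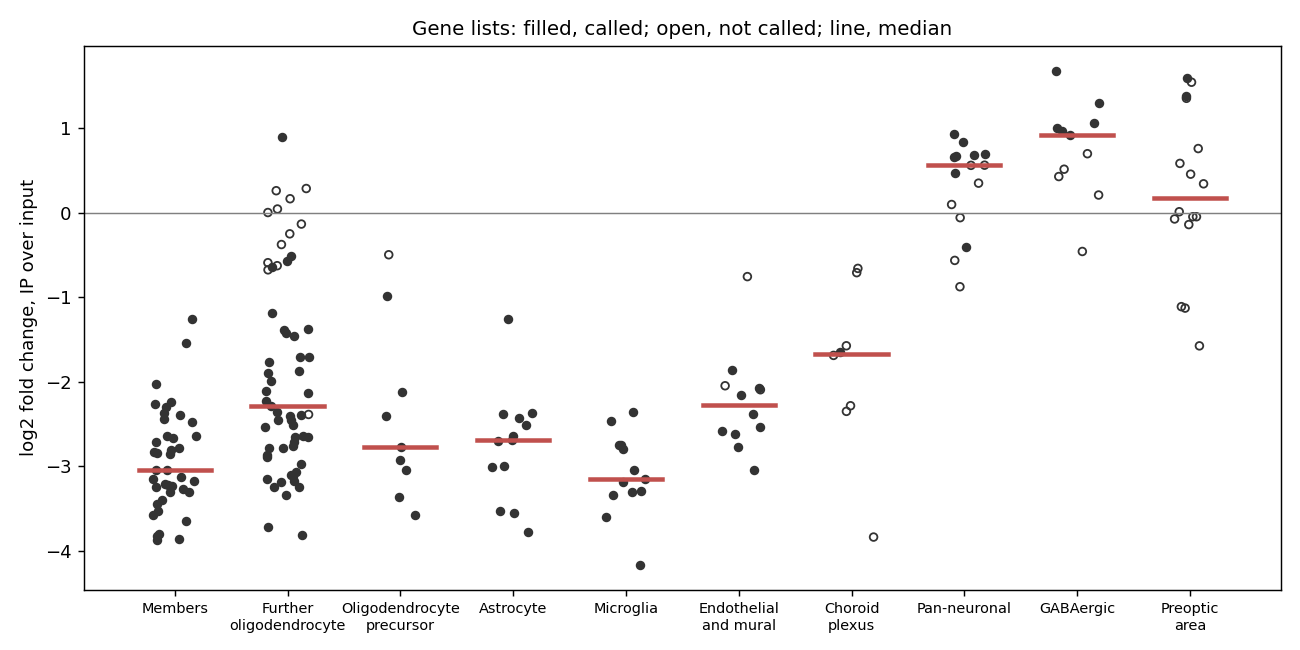
Each point is a tested gene, placed by its log2 fold change of IP over input, filled where the adjusted p was under 0.05 and open otherwise, with red lines at the list medians. All 40 members are filled and lie below 0, as do the 13 astrocyte and 13 microglial markers, whereas pan-neuronal and GABAergic genes lie mostly above 0.

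Cnp, Nkx6-2, Pllp and Nkx2-2 are among the members that overlap a gene on the opposite strand, and without strand information reads in shared exons cannot be told apart. Cnp shares 670 exonic bases with Dnajc7, a chaperone gene that rose in IP by 0.55 on the log2 scale. Summed over 3 libraries, Dnajc7 had 190% of the counts of Cnp in IP and 25.3% in input. Nkx6-2 shares 246 exonic bases with Inpp5a, which was not called and had 18521 counts against 1396 of Nkx6-2 in IP, and 15297 against 8566 in input. Pllp shares 1128 exonic bases with Gm45767, which had 71.8% of its counts in IP and 23.0% in input, and Nkx2-2 shares 350 with Nkx2-2os. A further gene on the opposite strand within Nkx2-2, 6430503K07Rik, had 14.4% of the counts of Nkx2-2 over all libraries. Its shared exonic bases are not reported here.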

How the data were processed

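Whole-number raw counts for each gene are the authors' own deposited values, as are the FPKM values, which also take gene length into account. HISAT2, featureCounts and DESeq2 and the build mm39 are named in the submitters' processing notes. Versions and the strand setting are not given in the sources used here. The deposited normalized signal, log2 fold changes and p-values of the authors entered no test. By the authors' deposited values, 40 members are called lower and 0 higher. Over all genes the same values call 3759 genes lower and 2883 genes higher.

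Counts were tested with edgeR's quasi-likelihood test (version 4.0.16, under R 4.3.3) after filterByExpr and TMM scaling, group as the only factor, two-sided, with Benjamini-Hochberg adjustment over all 18640 genes tested. SE is the log2 fold change divided by the square root of F. Each library held at least 48204567 counts, so that 3 counts correspond to at most 0.0651 CPM. Values per library are given, in each role, for the 3 members with the highest FPKM in input and those with the smallest and largest fall. Values are also given for the further genes that were most abundant, fell most, rose or were not called, and for the most abundant marker of each list. Values of some genes that this rule covers are not reported here. Other members with such values (Sox10, Olig2, Lpar1, Klk6) were singled out after their values were seen.

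Groups and replicate numbers came from the titles. Same-numbered libraries share a pool: the design text says that total RNA of every sample served as its control. Deviations from group means correlated at 0.23, 0.12 and 0.08 over all genes between same-numbered libraries in replicates 1, 2 and 3, and at -0.19 to 0.08 otherwise. Each replicate pools 3 animals. With group as the only factor, p-values set the difference against the spread among libraries of a kind and leave the pairing out. That spread holds differences between pools and between library preparations, which cannot be told apart. The members, lists and motifs were chosen with earlier results of these data known. Alternatives were other scalings and filters, DESeq2 1.42.0, the replicate block without and with a length correction, leaving out libraries, and testing against 1.5-fold. All 40 member identifiers matched GENCODE M39 by chromosome and span. No columns of other samples were present.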

Additional observations from a re-analysis of the deposited data

How the results depend on the processing

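All 40 members kept their direction under the 18 alternatives run, and all were called in 16 of them. Without both libraries of replicate 2 or of replicate 3, 39 were called, with Klk6 the exception in each. Their median log2 fold change ranged from -3.15 to -2.83. With the replicate as a block, which pairs the libraries of a pool, 40 members fell with a largest adjusted p of 0.000266 in edgeR's test, 40 fell when a length correction was added, and the block changed no other call of a member. Of the further oligodendrocyte genes 28 to 47 fell when libraries were left out, and 1 rose in each alternative. When libraries were left out, all tested genes lower in IP ran from 742 to 3080 (2035 when input replicate 3 was dropped, 2095 and 742 when the pools of replicates 2 and 3 were). All tested genes higher in IP then ran from 133 to 2630 (1445 without input replicate 3, 1479 and 1417 without IP replicates 2 and 3, 1508 and 133 without both libraries of replicates 2 and 3). Against a fold change of 1.5, all tested genes lower in IP numbered 1656 and all tested genes higher in IP 448. The cause was not tested. The 3 counts that correspond to at most 0.0651 CPM lie below every member's value in IP, but Enpp6, Klk6 and Pllp had under 110 counts in each IP library, which limits the precision of their folds. With library totals alone as the scaling the median of all genes was -0.17 and that of the members -3.15 on the log2 scale.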
